A study of Homo sapiens with 5 samples.

Results

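The genes followed here were 10 in number, the drug- and hormone-metabolizing cytochrome P450 genes CYP1A1, CYP1B1, CYP2D6, CYP2S1, CYP3A5, CYP4F11 and CYP24A1 and the aryl hydrocarbon receptor genes AHR, AHRR and TIPARP. They were chosen by name from 37181 entries of a table of gene expression values, and where a gene had several entries the one with the highest mean over the 5 libraries was used. In all, 9 of the 10 were found by their symbols. AHR had no entry under its own symbol, and its 5 annotated transcripts lay in an entry listed as AC019117.2, which was found by its Ensembl transcripts after the table had been seen.

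RNA was measured in 5 sequencing libraries of a human lung adenocarcinoma cell line, HCC827, and of a gefitinib-resistant line, HCC827/GR. Gefitinib inhibits the tyrosine kinase of EGFR, and both lines carry an EGFR exon 19 deletion that makes the parental cells sensitive to it. HCC827/GR (3 libraries, replicates 1, 2 and 3) is a single line, obtained by growing HCC827 in rising doses of the drug for more than 6 months, and HCC827 (2 libraries, replicates 2 and 3, called HCC827/GS for gefitinib sensitive in the labels) is its parent. Whether gefitinib was in the medium when the resistant cells were harvested is not given in the sources used here, so resistance and the presence of the drug cannot be told apart in any comparison below. Nothing states that the replicates came from separate cultures, and p-values therefore measure the spread between these libraries, which may be technical.

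The aryl hydrocarbon receptor, AHR, is a transcription factor that waits in the cytoplasm in a chaperone complex, binds planar aromatic compounds and tryptophan metabolites, and then pairs with ARNT in the nucleus at sites with the core GCGTG. CYP1A1 and CYP1B1 are its classical targets in airway epithelium, where their enzymes oxidize polycyclic hydrocarbons of tobacco smoke, while AHRR and TIPARP are targets that act back on the receptor as repressors. Cytochrome P450 enzymes are haem proteins that take electrons from the reductase POR, and gefitinib itself is a substrate of CYP3A4, CYP3A5, CYP2D6 and CYP1A1.

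AHR, CYP1A1 and CYP24A1 were lower in HCC827/GR than in the parental cells, and no gene of the 10 was called higher. CYP24A1, the hydroxylase that inactivates vitamin D, had a mean 10.2 times higher in HCC827 than in HCC827/GR, the mean of CYP1A1 was 2.72 times higher in HCC827 and that of AHR 1.57 times. Of the other AHR targets among the 10, TIPARP had higher values in all 3 HCC827/GR libraries. CYP1B1, AHRR and CYP2S1 overlapped between the lines. The mean of CYP2S1 was lower in HCC827/GR, with a log2 fold change of -0.61 that was not called. Values are fragments per kilobase of transcript, scaled to the mapped fragments of each library (FPKM), so levels are per length and can be set side by side between genes, but the depth behind them is unknown. Differences were tested with limma on log2(FPKM + 1) over the 16189 entries that averaged 0.5 FPKM or more, a scale that understates the change of low genes. All adjusted p-values below are limma's with Benjamini-Hochberg adjustment over those entries, and a gene is said to have risen or fallen only where this adjusted p was under 0.05.

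By this rule 3 of the 8 genes tested fell and 0 rose, beside 5.71% of all entries tested that fell, 5.26% that rose and 11.0% that did either. At an unadjusted p under 0.05, 1 of the 8 was higher and 3 were lower, beside 13.4% of all entries that were higher, 13.8% that were lower and 27.2% in either direction. CYP2D6 and CYP4F11 were under 0.5 FPKM and were not tested. CYP24A1 passed this filter only through its level in HCC827. The median log2 fold change of the 8 was -0.32, and over all entries tested it was 0.00. A change of at least 2-fold with an unadjusted p under 0.05 was met by 1 of the 8, CYP24A1, which was lower, beside 3.97% of all entries that were lower by this rule, 2.96% that were higher and 6.94% in either direction. In the model without moderation that Ballgown uses, 0 of the 8 passed adjustment, as did only 15 of all 16189 entries. At an unadjusted p under 0.05 in that model 2 of the 8 were lower and 0 higher, beside 8.10% and 9.08% of all entries. The groups did not overlap for 2 genes that were higher and 3 that were lower in HCC827/GR, beside 22.8% of all entries that were higher without overlap, 23.4% that were lower and 46.3% in either direction.

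The letters GCGTG were searched for in the promoters of the 10 genes. Whether the receptor binds at any match, or a match bears on the values of its gene, was not tested. In the RefSeq promoter table (GRCh38.p14, from 250 bases before to 50 bases after a start), 7 of the 10 genes matched an entry, and 4 of these, CYP1A1, TIPARP, AHRR and AHR, held GCGTG on either strand. The same letters occur in 36.5% of the 35116 promoters of the table, so that a match by itself sets a promoter little apart. TIPARP, AHRR and CYP4F11 have several promoters in that table, which gives a gene more chances to match. The other TIPARP starts, beyond the first, held no core. No GCGTG lay in this window for CYP2S1, CYP3A5 or CYP4F11. Capitals mark the core, written CACGC where it lies on the opposite strand, and each run is read 5′ to 3′ on the strand of its gene. The match of CYP1A1 begins 57 bases before the start, at chr15:74725569-74725597 on the minus strand, and a TATAAA, found in 11.5% of promoters, begins at position -32.
CYP1A1: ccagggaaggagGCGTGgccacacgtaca
The first start of TIPARP has cores beginning 208 and 142 bases upstream, at chr3:156674370-156674398 and chr3:156674436-156674464 on the plus strand.
TIPARP distal: cgcgagaaaggaCACGCcccctcgcggga
TIPARP proximal: cgaacgaacgcgCACGCgcgcgcaggggg
The match of AHRR shown begins 30 bases before a start, at chr5:321672-321700 on the plus strand, and that of AHR begins at base 38 counted from the start as base 1, at chr7:17298677-17298701 on the plus strand.
AHRR: ggcgggcggctcGCGTGccggggtggggc
AHR: tctgttccgagaGCGTGccccggac

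The receptor and its feedback genes come first. AHR was one of the more abundant transcripts, with a level above that of 98.6% of entries. Its FPKM was 29.2, 29.7 and 30.8 in HCC827/GR replicates 1, 2 and 3, and 49.6 and 44.3 in HCC827 replicates 2 and 3. The resistant libraries lay close together, and both parental libraries lay above all of them. AHR fell, with a log2 fold change of -0.63 (SE 0.096, 95% confidence interval -0.88 to -0.38, adjusted p = 0.0245). The exact two-sided permutation p was 0.1, the smallest that 3 libraries against 2 allow. The call did not hold when any one library was left out, the adjusted p then being 0.0913, 0.0806 and 0.0623 without HCC827/GR replicate 1, 2 or 3 and 0.0823 and 0.0546 without HCC827 replicate 2 or 3, although its log2 fold change ranged only from -0.71 to -0.55. The AHR transcripts of the entry span chr7:17298622-17346152 on the plus strand in GENCODE 29 (GRCh38), and the same entry also holds 3 transcripts of the non-coding RNA KCCAT333 from chr7:17374867-17467256, so that its value is a sum over both.

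TIPARP, a mono-ADP-ribosyltransferase that modifies AHR and limits its activity (chr3:156673235-156706770, plus strand), was close to the receptor in level. It stood at 43.4, 40.7 and 46.2 FPKM in HCC827/GR and at 32.3 and 37.0 FPKM in HCC827. All 3 resistant libraries lay above both parental ones, but the log2 fold change of 0.32 (SE 0.111, interval 0.03 to 0.61) did not pass adjustment (adjusted p = 0.152, unadjusted p = 0.036). The order of receptor and feedback gene was opposite in the lines. The ratio of the AHR entry, which also holds KCCAT333, to TIPARP was 0.672, 0.730 and 0.666 in HCC827/GR and 1.53 and 1.2 in HCC827. This ratio could not overlap, since AHR was lower and TIPARP higher without overlap, so it adds nothing to their values.

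AHRR, the repressor that competes with AHR for ARNT, had overlapping values in the lines. It measured 3.93, 3.27 and 3.42 FPKM in HCC827/GR and 4.12 and 3.21 FPKM in HCC827, and the parental libraries were the highest and the lowest of the 5. The log2 fold change was -0.03, with an interval of -0.38 to 0.31 and an adjusted p of 0.898. The AHRR entry joins 9 transcripts of AHRR (chr5:304176-438291) with 14 of its neighbour PDCD6 (chr5:271621-353856), which overlaps it on the same strand, so the share of the value that belongs to AHRR is uncertain.

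**Figure D1:**
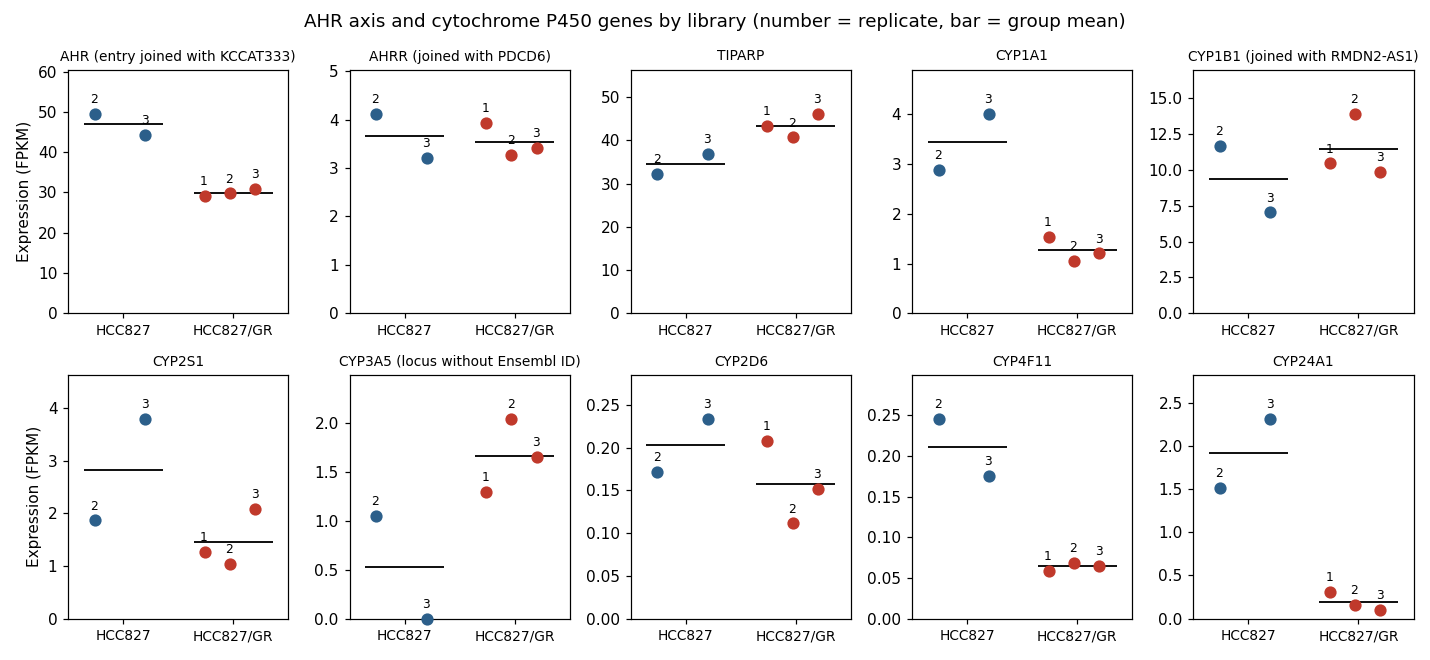
FPKM of the 10 genes, in a panel each with a linear axis from 0, with a numbered point for each replicate of HCC827 (blue, 2 libraries) and HCC827/GR (red, 3 libraries) and a bar at each group mean. AHR, CYP1A1, CYP24A1 and CYP4F11 are lower in all HCC827/GR libraries, TIPARP and CYP3A5 are higher in all of them, and the other genes overlap.

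CYP1A1 and CYP1B1, the classical AHR target enzymes, differed in their pattern. CYP1A1 (chr15:74719542-74725610, minus strand) measured 1.53, 1.06 and 1.21 FPKM in HCC827/GR (mean 1.27 ± 0.243 SD, n = 3) and 2.88 and 4.02 FPKM in HCC827 (3.45 ± 0.805 SD, n = 2). Every resistant library was below both parental libraries. CYP1A1 fell, with a log2 fold change of -0.97 (SE 0.167, interval -1.40 to -0.53, adjusted p = 0.0328), and the exact permutation p was again the smallest possible, 0.1. Without HCC827/GR replicate 1, 2 or 3 the adjusted p was 0.0748, 0.0933 or 0.0932, and it was 0.0774 or 0.118 when HCC827 replicate 2 or 3 was omitted, so this call too needed all 5 libraries, although the log2 fold change stayed within -1.15 to -0.78. Over the whole table, the 1775 calls of either direction became 489 to 962 when a library was left out. With no filter on low values it was 0.0698.

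CYP1B1, which hydroxylates oestradiol and polycyclic hydrocarbons, had the highest level of the 48 P450 genes with an entry of their own symbol, with a mean over the libraries of 10.6 FPKM. It stood at 10.5, 13.9 and 9.88 FPKM in HCC827/GR and at 11.7 and 7.03 FPKM in HCC827. The groups overlapped, with HCC827 replicate 2 in the range of the resistant libraries and replicate 3 below them. The log2 fold change of 0.29 had an interval of -0.37 to 0.95 (adjusted p = 0.533), and it was -0.04 without HCC827 replicate 3 and 0.615 without replicate 2, so that a single parental library set the direction. The CYP1B1 entry (chr2:38066973-38109902, minus strand) also holds 8 transcripts of RMDN2-AS1, whose gene record (chr2:37949911-38067041, minus strand) overlaps that of CYP1B1.

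The ratio of CYP1B1 to CYP1A1 set the lines apart, as CYP1A1 alone already did. CYP1B1 was 6.82, 13.2 and 8.18 times as high as CYP1A1 in HCC827/GR and 4.05 and 1.75 times as high in HCC827, with no overlap. The ratio of TIPARP to CYP1A1 was 28.3, 38.6 and 38.3 in HCC827/GR and 11.2 and 9.20 in HCC827. It had to set the lines apart, since TIPARP was higher and CYP1A1 lower without overlap. These ratios were computed after the values had been seen and were not tested.

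CYP2S1, also taken here as an AHR target, encodes a P450 of epithelia outside the liver (chr19:41193049-41207539, plus strand). Its FPKM was 1.27, 1.04 and 2.09 in HCC827/GR and 1.87 and 3.80 in HCC827. HCC827/GR replicate 3 lay above HCC827 replicate 2, and the log2 fold change of -0.61 (interval -1.39 to 0.17) did not pass the test (adjusted p = 0.273).

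CYP24A1 showed the largest difference of the 10 (chr20:54153449-54173973, minus strand). Its enzyme hydroxylates the active form of vitamin D, and its gene is a classical target of the vitamin D receptor, VDR. CYP24A1 measured 0.305, 0.160 and 0.0994 FPKM in HCC827/GR (0.188 ± 0.106 SD, n = 3) and 1.52 and 2.31 FPKM in HCC827 (1.92 ± 0.563 SD, n = 2). The lowest parental library was well above the highest resistant one. CYP24A1 fell, with a log2 fold change of -1.29 (SE 0.182, interval -1.76 to -0.81, adjusted p = 0.0207, exact permutation p = 0.1). Its mean over the 5 libraries, 0.879 FPKM, passed the filter of 0.5 FPKM through HCC827 alone, so the filter and the test drew on the same difference. With a pseudocount of 0.1 in place of 1 the log2 fold change was -2.84, and the log2 ratio of the mean FPKM was -3.35. The call was kept without HCC827 replicate 2 (adjusted p = 0.0463) and lost without HCC827/GR replicate 1 (0.0602), 2 (0.0682) or 3 (0.0613) and without HCC827 replicate 3 (0.0645). A second, assembled CYP24A1 entry with no Ensembl transcript had 0.127, 0.0580 and 0.0505 FPKM in HCC827/GR and 0.546 and 0.573 FPKM in HCC827, also without overlap. Another assembled entry went the other way, at 0.0992, 0 and 0.158 FPKM in HCC827/GR, and was listed at 0 in both parental libraries.

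VDR itself stood at 2.21, 1.64 and 2.91 FPKM in HCC827/GR and 3.45 and 4.51 FPKM in HCC827. All resistant libraries were below both parental ones, and the log2 fold change of -0.62 (SE 0.207, interval -1.16 to -0.08) did not pass adjustment (adjusted p = 0.141).

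**Figure D2:**
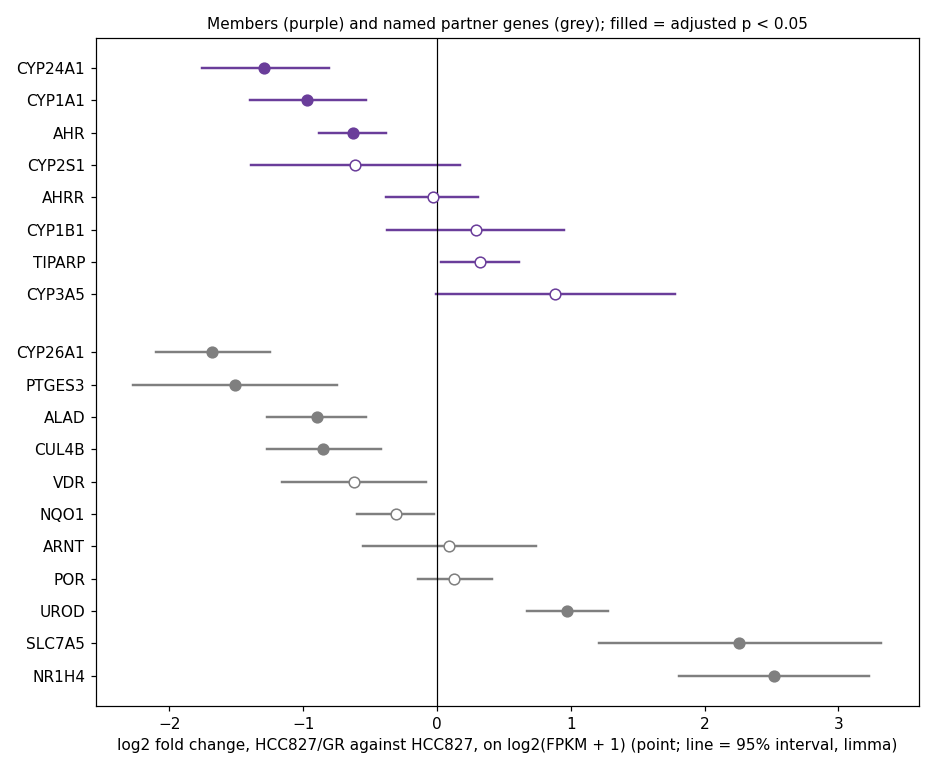
Log2 fold change between the lines (HCC827/GR minus HCC827, from log2(FPKM + 1) values) for the 8 genes tested (purple) and 11 partner genes named in the text (grey), with lines for the 95% confidence interval of limma and filled points for an adjusted p under 0.05. Of the 8, the intervals of AHR, CYP1A1 and CYP24A1 lie below 0 with filled points, that of TIPARP lies above 0 with an open point, and those of AHRR, CYP1B1, CYP2S1 and CYP3A5 cross 0.

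The other genes of the 10 whose enzymes metabolize gefitinib, CYP3A5 and CYP2D6, were low in both lines. The annotated gene of CYP3A5, a drug-oxidizing enzyme, lies at chr7:99648194-99680026 on the minus strand. The CYP3A5 entry used, whose own position is not given, measured 1.29, 2.04 and 1.65 FPKM in HCC827/GR. It stood at 1.05 FPKM in HCC827 replicate 2 and was listed at 0 in HCC827 replicate 3. The resistant libraries were the higher ones, and the log2 fold change was 0.88 (SE 0.344, interval -0.01 to 1.78, adjusted p = 0.188). HCC827 replicate 3 decided its size, since the log2 fold change was 0.37 without that library (adjusted p = 0.401) and 1.40 without HCC827 replicate 2 (adjusted p = 0.0774). This entry, the one with the highest mean, holds 1 assembled transcript and no annotated one. The entry with the 13 annotated CYP3A5 transcripts was under the filter, at 0.393, 0.499 and 0.371 FPKM in HCC827/GR and 0.140 and 0.0633 FPKM in HCC827, and its groups did not overlap either. Reads shared with the closely related CYP3A4, CYP3A7 and CYP3A43 make both values uncertain.

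CYP2D6, which oxidizes many basic drugs (chr22:42126499-42130906, minus strand), stood at 0.208, 0.112 and 0.152 FPKM in HCC827/GR and 0.172 and 0.234 FPKM in HCC827. The groups overlapped, and this gene shares sequence with nearby pseudogenes. CYP4F11, a fatty acid and vitamin K hydroxylase with close paralogs on chromosome 19 (chr19:15912367-15934867, minus strand), was at 0.0587, 0.0684 and 0.0651 FPKM in HCC827/GR and 0.246 and 0.176 FPKM in HCC827. Its groups did not overlap, and the mean of HCC827 was 3.29 times that of HCC827/GR. In the fit with no filter on low values the adjusted p was 0.0940 for CYP4F11 and 0.663 for CYP2D6.

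In HCC827 the order of mean levels was AHR, TIPARP, CYP1B1, AHRR, CYP1A1, CYP2S1, CYP24A1, CYP3A5, CYP4F11 and CYP2D6. In HCC827/GR it was TIPARP, AHR, CYP1B1, AHRR, CYP3A5, CYP2S1, CYP1A1, CYP24A1, CYP2D6 and CYP4F11. The place of CYP3A5 rests on its assembled entry. Its annotated entry was at 0.371 to 0.499 FPKM in HCC827/GR, below CYP2S1 and CYP1A1, and at 0.140 and 0.0633 FPKM in HCC827, below all the other genes. AHR, AHRR and CYP1B1 were ranked by entries joined to other genes. CYP1A1 and CYP2S1 overlapped in both lines, and in HCC827/GR CYP3A5 overlapped both of them and CYP24A1 overlapped CYP2D6. In HCC827 the values of AHRR overlapped those of CYP1A1, those of CYP2S1 overlapped those of CYP24A1, and those of CYP4F11 overlapped those of CYP2D6. AHR, TIPARP and CYP1B1 stood above AHRR in all libraries.

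The rest of the P450 family was sparse in these cells. Of 57 P450 genes considered, 48 had an entry under their own symbol, 3 were joined to an entry of another gene and 6 were not found. In all, 13 had a mean of at least 0.5 FPKM, 11 lay from 0.1 to 0.5 FPKM and 24 lay below 0.1 FPKM. Of those 48, CYP1B1 alone had a mean over the libraries of at least 5 FPKM. In HCC827 it was followed by CYP26A1 (4.54 FPKM), CYP20A1 (4.11 FPKM) and CYP1A1, and in HCC827/GR by CYP20A1 (4.21 FPKM), CYP2U1 (2.64 FPKM) and CYP2J2 (2.18 FPKM).

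**Figure D3:**
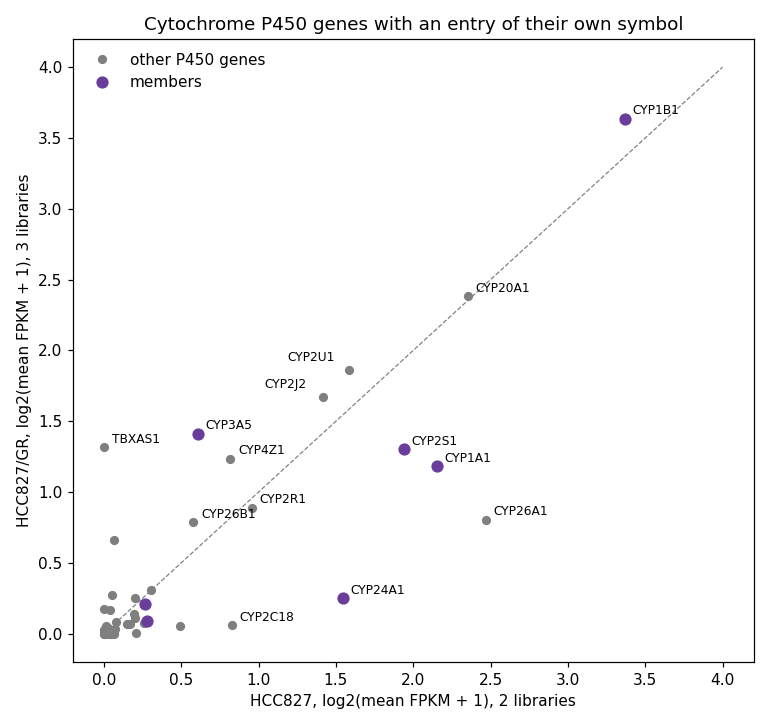
Log2(mean FPKM + 1) of each P450 gene with an entry of its own symbol, in HCC827 (horizontal axis, 2 libraries) against HCC827/GR (vertical axis, 3 libraries), with the 7 P450 genes followed here in purple, the others in grey and a dashed line where both are equal. CYP1B1 is the highest in both lines, CYP24A1 and CYP26A1 lie far below the line of equality, and most other genes lie near the origin.

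Of the 50 P450 genes outside the 10, 8 could be tested, of which 1 rose, 1 fell and 6 did not pass, with a median log2 fold change of 0.21. The shares over all entries tested were 5.26% that rose and 5.71% that fell. CYP26A1, which clears retinoic acid, fell from 4.68 and 4.39 FPKM in HCC827 to 0.971, 0.808 and 0.451 FPKM in HCC827/GR (log2 fold change -1.68, SE 0.163, adjusted p = 0.00996). The parental libraries were far above the resistant ones, and the call was lost without HCC827 replicate 2 (adjusted p = 0.0699) or 3 (0.0606). TBXAS1, thromboxane synthase, was listed at 0 in both HCC827 libraries and stood at 1.23, 1.63 and 1.61 FPKM in HCC827/GR in the entry used (adjusted p = 0.0115). That entry is a single assembled transcript, and it passed the filter of 0.5 FPKM through HCC827/GR alone. The entry with the 17 annotated TBXAS1 transcripts was below the filter, at 0.654, 0.399 and 0.444 FPKM in HCC827/GR and 0.219 and 0.381 FPKM in HCC827. Another entry was opposite, at 1.97 FPKM in HCC827 replicate 3 and listed at 0 in the other 4 libraries. With the 3 TBXAS1 entries summed the log2 fold change was 0.565 and the adjusted p 0.472. For the entry used, unsummed, the log2 fold change was 1.31 without HCC827 replicate 2 or 3.

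Among the chaperones, partners and coactivators of AHR, 0 of the 9 tested rose, 3 fell and 6 did not pass, with a median log2 fold change of -0.12. Over all entries tested, 5.26% rose and 5.71% fell. PTGES3, the HSP90 cochaperone p23, measured 50.9, 26.1 and 32.8 FPKM in HCC827/GR and 101 and 103 FPKM in HCC827 (log2 fold change -1.51, SE 0.293, adjusted p = 0.0418). CUL4B, a scaffold of the ubiquitin ligase that AHR can join, measured 11.6, 9.47 and 10.4 FPKM in HCC827/GR and 22.7 and 16.97 FPKM in HCC827 (log2 fold change -0.85, SE 0.163, adjusted p = 0.0409). In both genes the parental libraries lay above all resistant ones. The call of CUL4B was lost without any one of the 5 libraries, with adjusted p from 0.0629 to 0.129. The call of PTGES3 was kept without HCC827/GR replicate 1 (adjusted p = 0.037) and lost without replicate 2 (0.0823) or 3 (0.118) and without HCC827 replicate 2 (0.177) or 3 (0.171).

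ARNT, the partner with which AHR binds DNA, stood at 7.82, 6.09 and 4.74 FPKM in HCC827/GR and 6.93 and 4.59 FPKM in HCC827. The lines overlapped, and the log2 fold change of 0.09 (interval -0.55 to 0.74, adjusted p = 0.855) was -0.06 without HCC827/GR replicate 1 and -0.16 without HCC827 replicate 3.

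Of the 9 tested genes on the list of other AHR targets, 1 rose, 0 fell and 8 did not pass, beside 5.26% of all entries that rose and 5.71% that fell. Their median log2 fold change was 0.18. At an unadjusted p under 0.05, 4 were higher and 2 lower (13.4% and 13.8% of all entries). SLC7A5, the large neutral amino acid transporter that also carries kynurenine, rose from 241 and 94.8 FPKM in HCC827 to 754, 749 and 689 FPKM in HCC827/GR (log2 fold change 2.26, SE 0.406, adjusted p = 0.0355). The parental libraries differed from each other more than the resistant ones did. Its log2 fold change was 2.93 without HCC827 replicate 2 and 1.597 without HCC827 replicate 3, and its call was lost without HCC827/GR replicate 1 (adjusted p = 0.112), 2 (0.105) or 3 (0.097). NQO1, the quinone reductase shared by the AHR and NRF2 programmes, was at 50.4, 42.9 and 44.0 FPKM in HCC827/GR and 58.4 and 55.3 FPKM in HCC827. Its groups did not overlap, and its log2 fold change of -0.31 (SE 0.111, interval -0.60 to -0.02) did not pass adjustment (adjusted p = 0.163).

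Of the 12 enzymes of tryptophan and kynurenine metabolism, some of which make AHR ligands, only AFMID, KYAT1, AADAT, TPH1 and DDC could be tested. Of these 5, 0 passed the threshold of limma, 0 were at an unadjusted p under 0.05 and 0 passed in the model that Ballgown uses. Over all entries tested, 11.0% passed the threshold of limma and 27.2% were at an unadjusted p under 0.05. The enzymes of the first step were below the filter, and their values were singled out after they had been seen. IDO1 was listed at 0 in all HCC827/GR libraries and stood at 0.215 and 0.251 FPKM in HCC827 (adjusted p = 0.0215 in the fit with no filter), and TDO2 stood at 0.470, 0.531 and 0.459 FPKM in HCC827/GR and 0.209 and 0.161 FPKM in HCC827 (adjusted p = 0.186 in that fit). Of the 18 tested electron donors and haem enzymes that P450 proteins depend on, 1 rose, 1 fell and 16 did not pass, beside 5.26% and 5.71% of all entries that rose and fell. UROD, a haem synthesis enzyme, measured 18.4, 16.3 and 19.4 FPKM in HCC827/GR and 8.11 and 9.26 FPKM in HCC827 (log2 fold change 0.97, SE 0.118, adjusted p = 0.0145). ALAD, an earlier enzyme of the same pathway, measured 2.35, 2.89 and 2.03 FPKM in HCC827/GR and 5.67 and 5.02 FPKM in HCC827 (log2 fold change -0.90, SE 0.142, adjusted p = 0.027). Neither gene overlapped between the lines. The call of UROD was lost without HCC827/GR replicate 1 (adjusted p = 0.0641) or HCC827 replicate 2 (0.0781) or 3 (0.0565), and that of ALAD without HCC827/GR replicate 1 (0.0936) or 3 (0.0627) or HCC827 replicate 2 (0.136) or 3 (0.0994).

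POR, the reductase that feeds electrons to microsomal P450 enzymes, was at 14.1, 13.3 and 12.5 FPKM in HCC827/GR and 12.8 and 11.3 FPKM in HCC827. The groups overlapped, and the log2 fold change of 0.13 had an interval of -0.14 to 0.41 (adjusted p = 0.489).

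Among the 6 tested receptors that regulate P450 genes, 1 rose, 0 fell and 5 did not pass, beside 5.26% and 5.71% of all entries that rose and fell. NR1H4, the bile acid receptor FXR, measured 5.84, 7.97 and 3.96 FPKM in HCC827/GR and 0.255 and 0.0972 FPKM in HCC827. Every resistant library was above 1 FPKM and both parental ones were below it. NR1H4 thus passed the filter of 0.5 FPKM through HCC827/GR alone. NR1H4 rose by a log2 fold change of 2.52 (SE 0.273, adjusted p = 0.0116), and the call was lost without HCC827/GR replicate 1 (adjusted p = 0.0548) or HCC827 replicate 2 (0.0775) or 3 (0.0781).

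Profiles over the 5 libraries were compared by the Euclidean distance between centred log2(FPKM + 1) values, as a description of likeness. Nearest to AHR lay AL158206.1 (distance 0.0605), RDH10-AS1 (0.0818) and STN1 (0.0851). Nearest to CYP24A1 lay MT1A (0.183), AC022400.3 (0.194) and ST6GALNAC5 (0.201).

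The libraries had summed FPKM of 138854 to 167722. Those of the same cells correlated at r = 0.913 to 0.927 over entries, and those of different cells at 0.851 to 0.873. Epithelial markers were present in all libraries, and the 6 with an entry of their own summed to 443 to 573 FPKM in HCC827/GR and 1070 to 1190 FPKM in HCC827. Fibroblast markers summed to 2.48 to 2.76 FPKM in HCC827/GR and 3.19 to 3.28 FPKM in HCC827, over 5 entries. Most of this was the PDGFRA entry, joined to FIP1L1, with means of 1.89 FPKM in HCC827/GR and 2.47 FPKM in HCC827. LUM also had a lower mean in HCC827/GR, while the means of COL1A1 (0.705 against 0.562 FPKM in HCC827), COL1A2 and DCN were higher there. The immune marker PTPRC had a mean of 0.0153 FPKM, while the CD68 entry, joined to other genes, made up nearly all of the sum of 30.8 to 39.0 FPKM over 3 immune entries. Endothelial markers summed to at most 0.0333 FPKM in HCC827/GR and to 3.38 to 4.44 FPKM in HCC827, over 3 entries. Nearly all of the latter was PECAM1 (4.34 and 3.32 FPKM in HCC827), which was listed at 0 in all HCC827/GR libraries, while VWF stayed at or below 0.0268 FPKM in both lines. The epithelial, fibroblast and endothelial sums thus moved in the direction of AHR, CYP1A1 and CYP24A1, although the means of COL1A1, COL1A2 and DCN did not. The part of these sums in the results was not tested. In RNA from whole cultures, fewer cells that express a gene and less RNA per cell cannot be told apart.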

How the data were processed

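RNA of HCC827/GR (3 libraries) and HCC827 (2 libraries) was analysed from a deposited table of 37181 assembled entries. The authors trimmed reads with Cutadapt, checked them with FastQC, aligned them with TopHat2 and Bowtie2 and computed FPKM with StringTie, testing them in Ballgown. FPKM depends on the assembly, which can join neighbouring genes in an entry or split a gene. The paper describes an rRNA-depleted mRNA library, whereas the labels describe a small-RNA kit. The submitters' processing notes name hg18, while 135164 of 135299 Ensembl transcripts were found in GENCODE 29 (GRCh38), from which positions were taken. The table itself holds no coordinates. Whether counting used strand is not given in the sources used here. The table's 1 other FPKM column matched no sample and was not used.

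FPKM values were analysed as log2(FPKM + 1) with limma 3.58.1 (lmFit, then eBayes with a trend, in R 4.3.3), without the replicate block, over the 16189 entries averaging 0.5 FPKM or more, and p-values were adjusted by Benjamini-Hochberg. The fit was tested on simulated data. Exact permutation tests were two-sided over all 10 assignments of the 5 libraries. In all, 16 alternatives were run, covering the pseudocount, filter, scaling, model, entries of a symbol, replicate block and left-out libraries. Promoter sequences and motif counts came from RefSeq (GRCh38.p14), read with Python 3.11.15.

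The 10 genes and the 6 pathway and 4 marker lists were chosen with earlier results of these data known. Genes named were all 10, up to 4 called genes of each pathway list with the largest fold change, ARNT, POR, VDR and NQO1, and the 3 entries of likest profile to AHR and to CYP24A1, the tested gene of the largest change. Some genes that this rule names are not reported here. Markers describe the libraries only.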

Additional observations from a re-analysis of the deposited data

How the results depend on the processing

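Counts are of genes past an adjusted p of 0.05 unless stated. Over all entries, 1775 were called, against 1261 with no filter on low values, 15 in the Ballgown-like model, 0 with the replicate block and 489 to 962 with a library left out, so fewer calls under these settings are not particular to the genes below. Of the 10 genes, 3 were called, against 1 with no filter on low values, 0 in the Ballgown-like model, 0 with the replicate block and 0 to 1 when a library was left out. Past a 2-fold change and an unadjusted p of 0.05 there was 1, against 2 with a pseudocount of 0.1, with the replicate block, with entries of one symbol summed and with the ratio of the mean FPKM, 0 with a mean of at least 1 FPKM, and 1 to 3 with a library left out. Genes whose groups did not overlap numbered 5 of the 8 tested, beside 46.3% of all entries tested. Other P450 genes called numbered 2, against 1 with a mean of at least 1 FPKM or entries summed and 3 with no filter. AHR complex genes numbered 3, against 1 with no filter. Other AHR targets numbered 1, against 3 with a pseudocount of 0.1 or quantile normalization, 2 with a mean of at least 1 FPKM and 0 with no filter. Tryptophan enzymes numbered 0, against 1 with no filter. Electron donors and haem enzymes numbered 2, against 1 with no filter and 3 with quantile normalization or entries summed, and receptors 1, against 2 with median-ratio scaling. The Ballgown-like model and the replicate block gave 0 for each list, as they gave 15 and 0 over the whole table. With a library left out the calls were 0 to 2 (other P450 genes), 0 to 1 (AHR complex), 0 to 2 (other AHR targets), 0 to 0 (tryptophan enzymes), 0 to 3 (electron donors and haem enzymes) and 0 to 1 (receptors). The cause of these shifts was not tested.

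The replicate numbers were shared between the lines, and whether they pair the libraries is not settled here. Same-numbered libraries deviated from their group means with r = 0.033 for replicates 2 and 0.015 for replicates 3. With only 2 HCC827 libraries, their deviations mirror each other, so these values cannot decide whether libraries were paired. Under the replicate block the adjusted p was 0.160 for AHR, 0.143 for CYP1A1 and 0.149 for CYP24A1.

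Direction reversed in 7 of 335 values of single genes, which were those of AHRR (0.049 in the Ballgown-like model, 0.01 without HCC827/GR replicate 2 and 0.11 without HCC827 replicate 2, over a range of -0.177 to 0.107 with a library left out), CYP1B1 (-0.041 without HCC827 replicate 3, over a range of -0.041 to 0.615) and ARNT (-0.063 with the replicate block, -0.063 without HCC827/GR replicate 1 and -0.159 without HCC827 replicate 3, over a range of -0.159 to 0.345), none of them called. Of the others, 252 kept direction and side of the threshold and 76 kept direction only. The ratio of the mean FPKM reused the p-values of the main fit and so could not change side. Many of the 252 were values of genes not called in the main fit, while all 76 were values of called genes. Scaling moved the median over all entries by at most 0.02. The unknown depth and the 5 libraries limit the precision of genes below 1 FPKM most.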

Other observations

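The following genes were singled out after their values had been seen, and none of them passed adjustment. Of the conjugating enzymes that act after P450 oxidation, GSTA1, a glutathione transferase, stood at 4.84, 12.03 and 2.67 FPKM in HCC827/GR and at 0.102 and 0 FPKM in HCC827 (limma, adjusted p = 0.0506). Its near-identical neighbour GSTA2, with which it can share reads, stood at 2.92, 4.09 and 1.11 FPKM in HCC827/GR and at 0.152 and 0 FPKM in HCC827 (limma, adjusted p = 0.0672). Both were higher in all 3 resistant libraries, and both passed the filter of 0.5 FPKM through these libraries alone. ABCG2, a drug efflux transporter, went the other way, at 1.43, 1.39 and 2.70 FPKM in HCC827/GR and 4.53 and 4.18 FPKM in HCC827 (limma, adjusted p = 0.0703).

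Other P450 genes below the filter were not tested. CYP2C18 was at 0.0602, 0.0381 and 0.0254 FPKM in HCC827/GR and 0.929 and 0.614 FPKM in HCC827, with every resistant library below both parental ones. CYP3A4, the main enzyme of gefitinib clearance in liver, was at 0.197, 0.0760 and 0.118 FPKM in HCC827/GR, and both parental libraries listed it at 0.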
